A study of Mus musculus with 16 samples.

Results

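Organoids grown from the endometrial epithelium of Tgfbr2 conditional knockout (cKO) mice were compared under ovarian-type hormones and under vehicle, across all genes of the deposited expression table. Endometrial epithelial organoids are small hollow cultures of the cells that line the uterus and its glands. The comparison used 8 of the 16 RNA-seq libraries of the study, chosen by their titles: M13 to M16, cKO organoids given estradiol and medroxyprogesterone acetate (E2/MPA), against M5 to M8, cKO organoids given vehicle. The labels give the cKO genotype as Tgfbr2 PRcre+ and the control genotype as Tgfbr2 FF, read here as floxed Tgfbr2 with and without Cre. Tgfbr2 encodes the type II receptor of transforming growth factor beta (TGF-beta). In PRcre mice the Cre recombinase is expressed from the progesterone receptor gene, so deletion is limited to cells that have expressed that gene. All organoids were grown for 2 days first. They then received vehicle for 6 days, or 10 nM E2 for 2 days followed by 10 nM E2 with 1 µM MPA for 4 days, so the effects of E2 and of MPA cannot be told apart here. The control organoids (M1 to M4 under vehicle, M9 to M12 under E2/MPA) were used to estimate the spread and to test whether the response differed by genotype. Whether libraries of the same group derive from different animals is not stated in the labels, so the p-values reflect only the spread among these samples, and that spread may be technical. M8 and M16 stood apart from the other cKO libraries: markers of stromal fibroblasts, the connective tissue cells under the epithelium, summed to 24830 normalized reads in M8 and 40670 in M16, against 2012 to 4706 in the other cKO libraries. Age and the number of animals are not given in the sources used here.

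Estradiol acts through estrogen receptors and MPA, a synthetic progestin, through the progesterone receptor. Both are transcription factors that bind DNA once they hold their hormone, and MPA is also known to bind the glucocorticoid receptor. The progesterone, glucocorticoid and androgen receptors recognise the same kind of DNA element, a pair of inverted half-sites separated by a short spacer. In the uterus, estrogen drives growth of the epithelium, and progesterone then limits that growth and induces the secretory and transport genes of the phase in which an embryo can attach. TGF-beta binds its type II receptor, which recruits and phosphorylates the type I receptor, and SMAD proteins carry the signal to the nucleus.

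The promoters that hold the inverted steroid receptor element are shown first, because they belong to genes that were called in cKO organoids. The element was searched as GNACANNNTGTNC, which reads the same on both strands, in RefSeq promoters of the mouse build GRCm38.p6, from 250 bases before to 50 bases after each gene's start. It was found in 48 of the 11094 tested genes that have such a promoter (0.433%), in 4 of the 337 called higher (1.19%) and in 1 of the 180 called lower (0.556%). The windows below run 5′ to 3′ on the strand of the gene, and capitals mark the element, which begins 109 bases before the start of Abcb5, 181 before Map3k6, 94 before Mt1, 78 before Serpina3n and 179 before Ipcef1. Map3k6, a stress-signalling kinase gene, and Ipcef1 were chosen after their values were seen.
Abcb5, chr12:118966494-118966554, minus strand, higher under E2/MPA: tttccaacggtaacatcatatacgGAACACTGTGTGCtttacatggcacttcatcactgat
Map3k6, chr4:133240613-133240673, plus strand, higher: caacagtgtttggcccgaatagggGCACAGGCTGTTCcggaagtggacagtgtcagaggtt
Mt1, chr8:94178971-94179031, plus strand, higher: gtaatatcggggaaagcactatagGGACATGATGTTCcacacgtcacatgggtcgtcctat
Serpina3n, chr12:104406606-104406666, plus strand, higher: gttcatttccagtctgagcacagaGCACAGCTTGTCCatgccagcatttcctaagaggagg
Ipcef1, chr10:6980424-6980484, minus strand, lower: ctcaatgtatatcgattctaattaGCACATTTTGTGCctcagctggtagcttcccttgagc
The single half-site TGTTCT, searched on both strands, was in 15.1% of all these promoters, 19% of those called higher (64 of 337) and 12.2% of those called lower (22 of 180). A half-site can overlap a full element that ends in TGTTC. The estrogen response element GGTCANNNTGACC, also the same on both strands, was in 3 of all promoters (0.027%) and in 0 of those called higher or lower. A match is a description of these letters and not a binding site. Map3k6 had 176, 134, 132 and 128 normalized reads in M5 to M8 and 463, 247, 391 and 281 in M13 to M16 (log2 fold change 1.24 with SE 0.22 and adjusted p = 0.00579), and Ipcef1 fell from 8.98, 14.3, 14.7 and 20.9 to 1.19, 2.64, 2.28 and 10.8 (log2 fold change -1.85 with SE 0.48 and adjusted p = 0.0447). M16 lay within the vehicle range of Ipcef1. Ipcef1 did not pass without M1 to M3, M5 to M8, M10, M11 or M13 to M15 (highest adjusted p 0.138).

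E2/MPA changed 692 of the 16509 genes tested in cKO organoids (4.19%), 447 of them higher (2.71%) and 245 lower (1.48%). Values are normalized read counts, listed for single libraries in the order M5 to M8 and M13 to M16, and a gene was called when limma's adjusted p on log2(value + 1) was under 0.05. At upper-quartile scaling the split was 374 higher and 344 lower. In 670 of the 692 genes the 4 E2/MPA libraries did not overlap the 4 vehicle libraries (435 higher and 235 lower). Over all genes tested, 13.8% did not overlap, 8.01% higher and 5.8% lower. The calls were made on these same libraries, so little overlap follows from the selection and adds no evidence. Rises were also longer-tailed: 216 genes rose by more than 1 on the log2 scale and 104 by more than 2, against falls of 79 and 18 genes. The median change was 0.95 among genes called higher, -0.70 among genes called lower and -0.0039 over all genes tested. Genes called higher took 2.66% to 2.94% of the reads in the vehicle libraries and 4.91% to 5.34% under E2/MPA. Genes called lower took 1.81% to 2.25% and then 1.14% to 1.35%. With M8 and M16 left out and all control libraries kept, the test called 428 genes. Stromal marker sums of the control libraries, which also enter the shared spread, are not given here. Without 1 library the count of called genes ran from 362 (without M13) to 827 (without M12). It was also over 1.5 times lower without M5 (400), M7 (386), M8 (454), M14 (368) or M15 (419). With libraries 8 numbers apart as a block, a pairing that the labels do not state, 3098 genes were called. Counts of called genes in the lists below are to be read against the 2.71% higher and 1.48% lower over all genes tested.

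**Figure D1:**
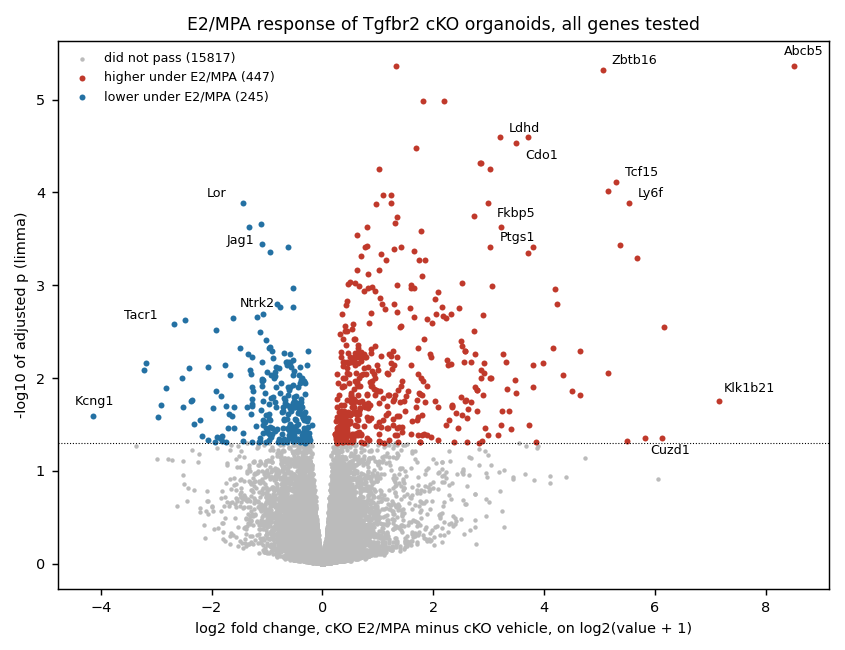
Each point is 1 of the 16509 genes tested, with its log2 fold change between cKO E2/MPA and cKO vehicle libraries on the x axis and -log10 of limma's adjusted p on the y axis; the dotted line is the threshold of 0.05. The 447 genes called higher (red) reach further from 0 than the 245 called lower (blue), with Abcb5 at 8.52 and Kcng1 at -4.14.

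The cultures held epithelial markers throughout, and other cell types' markers varied between libraries. The 12 endometrial epithelial markers, among them Epcam, Krt8 and Cdh1, were above 0 in all 8 libraries and summed to 160900 to 198900 normalized reads under vehicle and 155400 to 203000 under E2/MPA. The 16 stromal fibroblast markers summed to 2012 to 2026 in M5 to M7 and 2813 to 4706 in M13 to M15, lower than in M8 and M16. In each library 0 to 2 of them were at 0. Of the 15 tested, 0 were called (1 at an unadjusted p under 0.05, 0 by edgeR and 0 by DESeq2). Their median change was 0.80 with 12 above 0, against -0.0039 and 8135 over all 16509 genes tested. In genes called higher, M16 was the lowest of the E2/MPA libraries in 229 of 447 (51.2%), against 30.3% over all genes tested, and in genes called lower it was the highest in 119 of 245 (48.6%), against 31.6%. The median shift from the vehicle mean over the genes called higher was 1.00 in M13, 0.96 in M14, 0.99 in M15 and 0.76 in M16. The part of the stromal level in these shifts was not tested. In bulk libraries, a change in the number of cells of a type and a change in RNA per cell cannot be told apart. Sums of the 12 macrophage and leukocyte markers in the table (11570 to 31910 and 16980 to 25530, mostly Cd14 and Cd68), the 6 endothelial markers (71.8 to 197 and 66.6 to 214) and the 8 smooth muscle markers (1245 to 1974 and 1150 to 2614) overlapped between the groups. Smtn (1073 to 1478) made up most of the smooth muscle sums. The mean log2(value + 1) of the 8 smooth muscle markers was 5.72 in M8 and 6.05 in M16, against 3.52 to 4.38 in the other cKO libraries. Of the 11 macrophage and leukocyte markers tested, 0 were called, with a median change of 0.36 and 8 above 0. The sums of the 6 mesothelial markers did not overlap (5953 to 6535 and 6885 to 8685), nearly all of them from Msln (5812 to 6352 and 6694 to 8341), and the other 5 markers summed to 141 to 183 and 190.4 to 344. Of the mesothelial markers, 0 of the 5 tested were called (2 at an unadjusted p under 0.05, 0 by edgeR, 1 by DESeq2). Over all 16509 genes tested, 3075 had an unadjusted p under 0.05, edgeR called 678 and DESeq2 1273.

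Of the receptors for the given hormones, the progesterone receptor fell and the estrogen receptor did not pass the test. Pgr (ENSMUSG00000031870) had 3396, 2974, 3511 and 2989 normalized reads under vehicle, against 1609.7, 1635, 1701 and 1499.9 under E2/MPA, a 2.00-fold lower mean (3217 ± 277 to 1611 ± 83.6, SD, n = 4; log2 fold change -0.99 with SE 0.19 and adjusted p = 0.0085). No E2/MPA library reached the lowest vehicle library. Esr1, which encodes estrogen receptor alpha, had 2409, 2067, 2146 and 2608 under vehicle, against 3011, 2828, 2948 and 2634 under E2/MPA, with no overlap but no call (log2 fold change 0.31 with SE 0.15 and adjusted p = 0.285; adjusted p = 0.0394 with libraries 8 numbers apart as a block and 0.0433 with the stromal marker level as a covariate). Ncoa2, which encodes a coactivator of steroid receptors, rose from 1254, 1265, 1369 and 1428 to 2783, 2038, 2795 and 2209 (log2 fold change 0.87 with SE 0.15 and adjusted p = 0.00533), and these were the only calls among the 14 receptors and coregulators tested. Tgfbr2 (ENSMUSG00000032440), the gene targeted in cKO, was counted in all 8 libraries at 4035, 4304, 3520.1 and 5439 under vehicle, against 3941, 4269, 3568 and 5526 under E2/MPA, with the highest value in M8 and M16. Its log2 fold change was -0.00085 (SE 0.21, adjusted p = 0.999). The mean was 4325 ± 811 (SD, n = 4) in cKO and 6014 ± 1467 (SD, n = 4) in control vehicle libraries, whose range of 4852 to 8054 overlapped the cKO range. These are counts over the whole gene, and reads outside the deleted part would not show a deletion.

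A few known targets of estrogen and progesterone were called. Of the 19 estrogen-responsive genes tested, 2 rose and 0 fell (10.5% called, against 4.19% of all genes tested), with a median change of 0.15. These were Lcn2, described with the secreted proteins, and Greb1, a growth-associated target of the estrogen receptor, which rose from 2965, 2424, 2569 and 2429 to 5966, 6295, 5924 and 3867 (log2 fold change 1.06 with SE 0.19 and adjusted p = 0.00579), M16 being the lowest of the E2/MPA libraries. Without M8 and M16, 1 of the 19 was called. Of the 14 progesterone-responsive epithelial genes tested, 2 rose and 1 fell (21.4% called), with a median of 0.06, and 2 were called without M8 and M16. Ihh, the hedgehog ligand that epithelium sends to the stroma, rose from 35.9, 46.2, 28.2 and 49.4 to 157, 79.3, 92.3 and 74.2 (log2 fold change 1.28 with SE 0.28 and adjusted p = 0.0178). Lrp2, which encodes the endocytic receptor megalin, rose from 0, 6.72, 2.26 and 1.67 to 76.1, 167, 54.7 and 36.6 (log2 fold change 4.66 with SE 0.99 and adjusted p = 0.0152). Inhbb, which encodes a subunit of activin B and inhibin B, fell from 6493, 4454, 6008 and 6381 to 3623, 2433, 3026 and 4557 (log2 fold change -0.80 with SE 0.21 and adjusted p = 0.0493), and M16 overlapped the vehicle libraries. Ihh did not pass without M5, M7 or M13 (highest adjusted p 0.064). Lrp2 did not pass without M5 or M14 (highest adjusted p 0.0584). Inhbb did not pass without M2, M3, M5, M7 to M9, M11 or M13 to M15 (highest adjusted p 0.152).

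A small set of genes went from absent or nearly so to readily counted. They were defined by at most 3 reads summed over the vehicle libraries and a value of at least 10 in every E2/MPA library, and 5 genes met this rule and 0 the opposite one. BB123696, with 2 reads in all under vehicle, against 21.4, 36.1, 45.6 and 11.8 under E2/MPA (log2 fold change 4.24, adjusted p = 0.00159), is given by its values only. Abcb5 (ENSMUSG00000072791), which encodes a membrane transporter of the ATP-binding cassette family, had 0 reads in M5 to M8 and 807, 486, 347 and 131 normalized reads in M13 to M16, at least 614-fold higher, taking 3 reads in the whole vehicle group as the floor (log2 fold change 8.52 with SE 0.57 and adjusted p = 4.3e-06). M13 was the highest and M16 the lowest. Zbtb16 (ENSMUSG00000066687), which encodes the zinc finger repressor PLZF and is induced by progestins and glucocorticoids in many cells, had 0 reads under vehicle, against 48.8, 21.1, 19.4 and 53.8 under E2/MPA, at least 49.6-fold higher (log2 fold change 5.06 with SE 0.37 and adjusted p = 4.75e-06). Tcf15 (ENSMUSG00000068079), a basic helix-loop-helix transcription factor gene, had 0 reads under vehicle, against 36.9, 119, 20.5 and 23.7 under E2/MPA, at least 69.4-fold higher (log2 fold change 5.30 with SE 0.53 and adjusted p = 7.63e-05). M14 stood above the other E2/MPA libraries for Tcf15. Ms4a8a, a gene of the membrane-spanning 4-domains family, had 3 reads in all under vehicle, against 171, 374, 246 and 12.9 under E2/MPA (log2 fold change 6.17 with SE 0.99 and adjusted p = 0.00282), again lowest in M16. Fitted fold changes against groups at 0 depend on the pseudocount.

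Other genes rose by large factors from low vehicle levels. Ly6f, a member of the Ly6 family of surface proteins, had 14.6, 24.4, 21.5 and 6.69 under vehicle, against 911, 923, 979 and 377 under E2/MPA, a 47.6-fold higher mean (log2 fold change 5.53 with SE 0.60 and adjusted p = 0.000129). It was 1 of 2 calls among the 17 Ly6 and uPAR family genes tested, the other being a fall of Ly6g, a gene chosen after its values were seen (log2 fold change -1.10, adjusted p = 0.022). Arl4d, which encodes a small GTPase of the ARF family, had 2.24, 2.52, 6.78 and 2.51, against 349.8, 110.1, 311 and 74.2 (log2 fold change 5.37 with SE 0.66 and adjusted p = 0.000368), and Unc93a2 had 0, 1.68, 3.39 and 0, against 71.4, 181, 132 and 46.2 (log2 fold change 5.69 with SE 0.73 and adjusted p = 0.000508). In these genes M16 was the lowest E2/MPA library and still far above the highest vehicle library. Ly6g did not pass without M5, M7, M8 or M13 to M15 (highest adjusted p 0.0739).

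**Figure D2:**
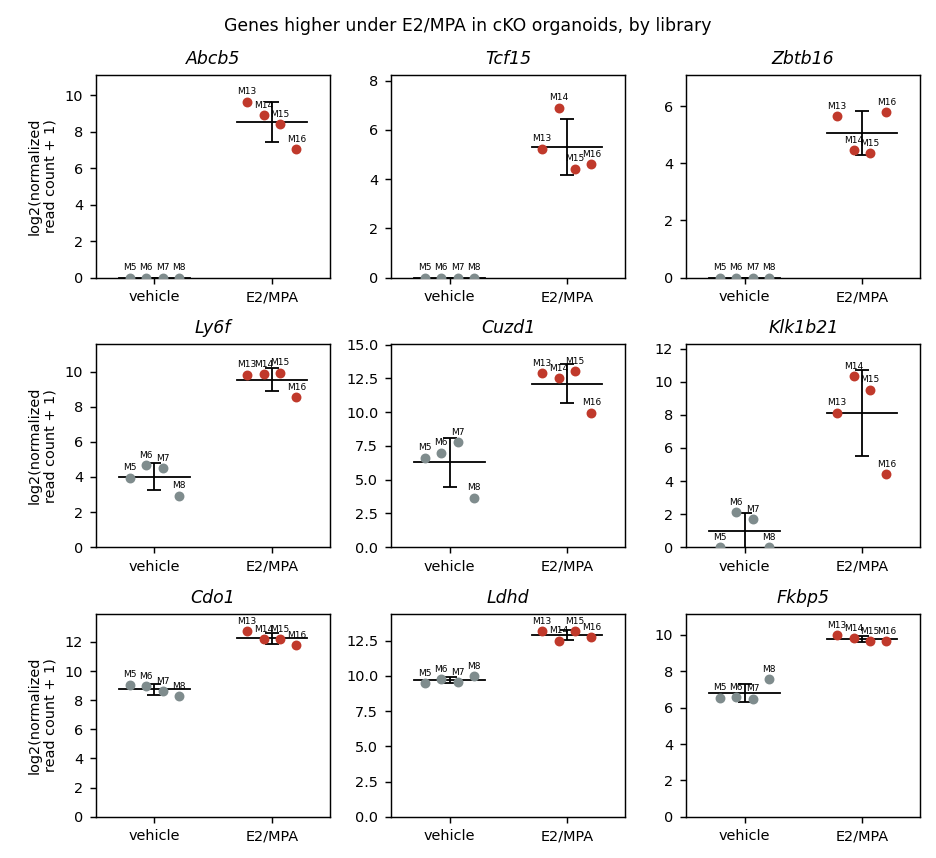
Each panel plots log2(normalized read count + 1) of 1 gene in the 4 vehicle (grey) and 4 E2/MPA (red) cKO libraries, with a bar at the mean and error bars of 1 SD. The groups do not overlap in any panel, Abcb5, Tcf15 and Zbtb16 are at 0 under vehicle, and M16 is the lowest red point for Abcb5, Ly6f, Cuzd1, Klk1b21 and Cdo1.

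Most targets that progestins share with glucocorticoids rose. Of 18 such genes tested, 11 rose and 0 fell, against 2.71% higher and 1.48% lower over all genes tested. The median change was 1.01, against -0.0039 over all genes tested. The list was chosen with earlier results of these data known and describes direction only. Fkbp5, the gene of a co-chaperone in steroid receptor complexes, had 93.1, 95.8, 89.2 and 188 under vehicle, against 1012, 916, 809 and 811 under E2/MPA, a 7.61-fold higher mean (log2 fold change 2.99 with SE 0.32 and adjusted p = 0.000129). Tsc22d3, which encodes the glucocorticoid-induced leucine zipper protein GILZ, had 34.8, 82.3, 40.7 and 57.7, against 418, 314, 407 and 361 (log2 fold change 2.85 with SE 0.27 and adjusted p = 4.79e-05). The E2/MPA libraries lay between 809 and 1012 for Fkbp5 and between 314 and 418 for Tsc22d3, clear of the vehicle libraries. Sult1a1, a phenol sulfotransferase gene, rose from 3.37, 3.36, 7.91 and 2.51 to 69.0, 112, 37.6 and 55.9 (log2 fold change 3.71 with SE 0.33 and adjusted p = 2.55e-05). Klf15, a Krüppel-like transcription factor gene, rose from between 1.12 and 7.53 to between 31.2 and 119 (log2 fold change 4.20 with SE 0.60 and adjusted p = 0.00109), and Pdk4, whose product restrains pyruvate dehydrogenase, from between 0.837 and 4.52 to between 15.0 and 36.6 (log2 fold change 2.90 with SE 0.45 and adjusted p = 0.00211). The half-site TGTTCT was in 4 of the 15 list genes with a promoter (26.7%), and the full element was in 2 (13.3%), Mt1 and Sgk1. Sgk1, a kinase gene chosen after its values were seen, did not pass (log2 fold change -0.16, adjusted p = 0.693). Without M8 and M16, 11 of the 18 were called as well.

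Several metallothioneins, small proteins that bind zinc and copper, and zinc importers rose. Of 10 genes of zinc handling tested, 5 rose and 0 fell, against 2.71% higher and 1.48% lower over all genes tested, with a median change of 0.90. Mt1 (ENSMUSG00000031765) had 1892, 2719.8, 2140.1 and 1780.2 under vehicle, against 5416, 7304, 6524 and 6488 under E2/MPA (log2 fold change 1.60 with SE 0.22 and adjusted p = 0.000986), so the lowest E2/MPA library was about 2 times the highest vehicle library. Mt2 had 145, 242, 105 and 144, against 476, 706, 578 and 657 (log2 fold change 1.97 with SE 0.31 and adjusted p = 0.00253), and Mt3 had 14.6, 32.8, 20.3 and 15.9, against 131, 124, 142 and 95.7 (log2 fold change 2.56 with SE 0.47 and adjusted p = 0.00676). Among zinc importers of the ZIP family, Slc39a14 rose from between 557 and 1133 to between 1458 and 2509 (log2 fold change 1.19 with SE 0.23 and adjusted p = 0.00909) and Slc39a4, chosen after its values were seen, from between 5636 and 6766 to between 7748 and 10205 (log2 fold change 0.62 with SE 0.12 and adjusted p = 0.011). The call of Slc39a4 ended without both M8 and M16 (adjusted p = 0.0665), which left 4 calls on the list. Mt1 and Mt2 also belong to the shared target list above.

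Secreted proteins of epithelial defence and proteolysis held some of the most abundant transcripts that rose. Lcn2, which encodes the iron-siderophore binding protein lipocalin 2, had 35358, 46349, 40760.5 and 26148 under vehicle, against 123935, 111943, 128353 and 154500.5 under E2/MPA, a 3.49-fold higher mean (log2 fold change 1.82 with SE 0.36 and adjusted p = 0.0107). M16 was the highest for Lcn2, as in 65 of the 447 genes called higher (14.5%), and the call ended without both M8 and M16. Of 14 innate defence genes tested, 3 rose and 0 fell, against 2.71% higher and 1.48% lower over all genes tested. The median was 0.98 and all 14 were above 0, against 8135 of the 16509 genes tested. Without M8 and M16, 1 was called. The others called were Lyz1, a lysozyme gene, from between 0 and 2.51 to between 9.12 and 22.0 (log2 fold change 3.48, adjusted p = 0.0105), and Chil3, a chitinase-like protein gene, from between 0 and 3.36 to between 4.40 and 46.4 (log2 fold change 2.93, adjusted p = 0.0342). Mmp7, which encodes the epithelial metalloproteinase matrilysin, had 3527, 3994, 3862 and 1968, against 15127, 11557, 14551 and 16431 (log2 fold change 2.15 with SE 0.32 and adjusted p = 0.00172), the only call among the 21 metalloproteinase genes and inhibitors tested. Chil3 did not pass without M5, M7, M8, M13 or M15 (highest adjusted p 0.111).

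Some secreted products rose by large factors, with wide spread between libraries. Cuzd1, which encodes a membrane protein with CUB and zona pellucida domains, had 97.6, 128, 222 and 11.7, against 7681, 5841, 8292 and 998, a 49.6-fold higher mean (log2 fold change 5.82 with SE 1.52 and adjusted p = 0.044). M8 and M16 were the lowest of their groups, as they were for Nptx1, which encodes neuronal pentraxin 1, with 7.85, 29.4, 15.8 and 0.837, against 1425, 1442, 1720.0 and 55.9 (log2 fold change 6.13 with SE 1.60 and adjusted p = 0.0444). Klk1b21, a tissue kallikrein gene, had 0, 3.36, 2.26 and 0, against 279.6, 1315, 734 and 20.4 (log2 fold change 7.15 with SE 1.56 and adjusted p = 0.0178). It was the only call by limma among the 6 tissue kallikreins tested, whose median change was 3.92. All 6 were above 0, against 8135 of the 16509 genes tested. Of the 6, 5 had an unadjusted p under 0.05 and DESeq2 called 4, against 3075 and 1273 of all genes tested. Without M8 and M16, limma called 3, and in control organoids it called 6 higher, against 428 and 890 of all genes tested. Since these genes are near-identical copies, reads could be split among them and their single values are uncertain. Serpina3n, an acute-phase serine protease inhibitor gene, had 0, 2.52, 0 and 0.837, against 14.3, 48.4, 26.2 and 514, with M16 far above the others (log2 fold change 5.16 with SE 0.99 and adjusted p = 0.00883). Wfdc15b, a protease inhibitor of the whey acidic protein family, rose from between 0 and 5.88 to between 18.3 and 118 (log2 fold change 4.50, adjusted p = 0.0139). Cuzd1 did not pass without M1, M5 to M11 or M13 to M15 (highest adjusted p 0.126). Nptx1 did not pass without M5 to M11 or M13 to M15 (highest adjusted p 0.126). Klk1b21 did not pass without M5, M8 or M13 to M15 (highest adjusted p 0.0674). Wfdc15b did not pass without M13 (highest adjusted p 0.0523).

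Several genes of metabolic enzymes rose, most of them chosen by size or adjusted p and not as a list. Rrm1 and Rrm2 were instead named as called members of a list. Cdo1 (ENSMUSG00000033022), which encodes cysteine dioxygenase, the first step from cysteine to taurine, had 535, 504, 398 and 307 under vehicle, against 6749, 4745, 4727 and 3562 under E2/MPA, an 11.3-fold higher mean (log2 fold change 3.50 with SE 0.31 and adjusted p = 2.93e-05). Ldhd (ENSMUSG00000031958), which encodes the mitochondrial D-lactate dehydrogenase, had 723, 860.1, 766 and 1001, against 9156, 5853, 9446 and 6810.5 (log2 fold change 3.20 with SE 0.28 and adjusted p = 2.55e-05). Over both genes the E2/MPA libraries lay between 3562 and 9446 and the vehicle libraries between 307 and 1001. Ctps, which encodes the enzyme that makes CTP, rose from between 1059 and 1459.9 to between 2372 and 2809 (log2 fold change 1.10 with SE 0.12 and adjusted p = 0.000108), and Slc25a48, a mitochondrial carrier gene, from between 1299 and 1938 to between 3278 and 5190.2 (log2 fold change 1.35 with SE 0.15 and adjusted p = 0.000182). Rrm2 and Rrm1, which encode the subunits of ribonucleotide reductase, rose from between 223 and 441 to between 539 and 871 (log2 fold change 1.23, adjusted p = 0.00685) and from between 766 and 1002 to between 1068 and 1329.7 (log2 fold change 0.50, adjusted p = 0.0301), the only calls among 31 cell cycle and DNA replication genes tested. That is 6.45% of the list, near the 4.19% called over all genes tested. Sult1d1, a sulfotransferase gene, rose from between 329 and 1439.9 to between 4449 and 8641 (log2 fold change 2.88, adjusted p = 0.0475) and Selenbp1, which encodes a selenium-binding methanethiol oxidase, from between 914 and 2288 to between 4094 and 6967 (log2 fold change 1.74, adjusted p = 0.0144). Rrm1 did not pass without M6 to M8, M13 or M14 (highest adjusted p 0.104). Sult1d1 did not pass without M1, M5 to M11 or M13 to M16 (highest adjusted p 0.134). Selenbp1 did not pass without M13 (highest adjusted p 0.0507).

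Of 28 genes of cholesterol and fatty acid synthesis tested, 4 rose and 0 fell, against 2.71% higher over all genes tested. A change above 0 was seen in 26 of the 28, with a median of 0.32, against 8135 of the 16509 genes tested. Of the 28, 3 were called without M8 and M16. Fasn, the fatty acid synthase gene, had 5502, 5409, 4544 and 5099.7 under vehicle, against 7647, 10306, 8116 and 9177 under E2/MPA (log2 fold change 0.77 with SE 0.10 and adjusted p = 0.000384). Its groups did not overlap. Smaller rises were those of Lss, lanosterol synthase (log2 fold change 0.58, adjusted p = 0.018), and Pmvk, phosphomevalonate kinase (log2 fold change 0.62, adjusted p = 0.0277). Lss did not pass without M7, M13 or M14 (highest adjusted p 0.0649). Pmvk did not pass without M7, M8, M13 or M14 (highest adjusted p 0.0941).

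Several transporter and channel genes rose, again chosen by size or adjusted p, except Scnn1a and Fxyd4, named as called members of a list. Slc5a3, which encodes the sodium-dependent myo-inositol transporter, had 3403, 3069, 3557 and 3381 under vehicle, against 13979, 9916, 14431 and 8710.4 under E2/MPA (log2 fold change 1.78 with SE 0.21 and adjusted p = 0.000259). Slc2a12, a glucose transporter gene, had 13.5, 16.0, 16.9 and 23.4, against 155, 381, 177 and 82.8 (log2 fold change 3.25 with SE 0.58 and adjusted p = 0.00555). Both were lowest in M16 within the E2/MPA group and above every vehicle library. Scnn1a, which encodes the alpha subunit of the epithelial sodium channel, rose from between 65.5 and 100 to between 243 and 417 (log2 fold change 1.85 with SE 0.24 and adjusted p = 0.00053) and Fxyd4, a regulator of the sodium pump, from between 193 and 245 to between 405 and 1516 (log2 fold change 1.79, adjusted p = 0.0413). They were the calls among 21 genes of ion and water transport tested, of which 12 were above 0 with a median of 0.03, and 1 was called without M8 and M16. Over all genes tested, 2.71% were called higher and 1.48% lower. Clcn2, a chloride channel gene, rose from between 1631 and 2356 to between 3663 and 5829.5 (log2 fold change 1.32 with SE 0.15 and adjusted p = 0.000215). Fxyd4 did not pass without M5 to M9 or M13 to M15 (highest adjusted p 0.133).

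Calcium genes included a channel, a pump and a binding protein. Cacna1d, which encodes a pore-forming subunit of an L-type calcium channel, had 4.49, 15.1, 6.78 and 6.69 under vehicle, against 63.1, 89.8, 52.4 and 73.1 under E2/MPA (log2 fold change 3.02 with SE 0.30 and adjusted p = 5.57e-05). Atp2b4, a plasma membrane calcium pump gene, had 6.73, 5.88, 3.39 and 10.9, against 30.9, 33.5, 58.1 and 52.7 (log2 fold change 2.57 with SE 0.45 and adjusted p = 0.00512). Calb1, which encodes the calcium-binding protein calbindin-D28k, had 1.12, 1.68, 1.13 and 0, against 109, 534, 199 and 3.23 (log2 fold change 5.49 with SE 1.45 and adjusted p = 0.0475), with M14 far above M16. Of 13 calcium handling genes tested, Atp2b4 and Calb1 were the 2 that rose and 0 fell, with a median of 0.19. Over all genes tested, 2.71% were called higher and 1.48% lower. Calb1 did not pass without M5 to M11 or M13 to M15 (highest adjusted p 0.148).

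Single genes of receptors, ligands and enzymes were also among the changes. Tshr, which encodes the thyrotropin receptor, had 56.1, 52.9, 64.4 and 11.7 under vehicle, against 1239.7, 658, 1345 and 394 under E2/MPA (log2 fold change 4.34 with SE 0.85 and adjusted p = 0.00925). Ptgs1, which encodes the prostaglandin synthase cyclooxygenase 1, had 441, 1096, 272 and 587, against 5292, 5415, 4676 and 2590.2 (log2 fold change 3.03 with SE 0.38 and adjusted p = 0.000384), the only call among the 17 prostaglandin and lipoxygenase genes tested. Il34, a cytokine gene whose product binds the CSF1 receptor, rose from between 174 and 193 to between 382 and 484 (log2 fold change 1.25 with SE 0.13 and adjusted p = 0.000129). Aldh1a1, which encodes an enzyme that makes retinoic acid, rose from between 32.6 and 181 to between 239.8 and 1272 (log2 fold change 3.04 with SE 0.60 and adjusted p = 0.00987), while Rdh10, which encodes the retinol dehydrogenase of the step before it, fell from 11565, 9291, 9485 and 16858 to 4209, 4419, 3549 and 7694 (log2 fold change -1.27 with SE 0.26 and adjusted p = 0.0125). Rnf144b, a ubiquitin ligase gene, rose from between 171 and 199.9 to between 547 and 700.0 (log2 fold change 1.81 with SE 0.14 and adjusted p = 1.03e-05), and Fam43a from between 280.1 and 349 to between 1107 and 2175 (log2 fold change 2.20 with SE 0.18 and adjusted p = 1.04e-05). Tmem176a, among the most abundant genes that rose, went from between 2418 and 4416 to between 8147 and 10974 (log2 fold change 1.52, adjusted p = 0.0158). Tmem176a did not pass without M7, M8 or M14 (highest adjusted p 0.0564).

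Leukemia inhibitory factor (LIF), a cytokine required for embryo attachment in mice, signals through LIFR and gp130 to JAK kinases and STAT3. The list tested was wider, with 18 genes of LIF, gp130 and prolactin receptor signalling. Of these, 3 rose and 0 fell, against 2.71% higher and 1.48% lower over all genes tested, with a median of 0.35. Lifr had 1400.2, 977, 1273 and 877 under vehicle, against 3354, 1999, 3339.7 and 1789 under E2/MPA (log2 fold change 1.18 with SE 0.25 and adjusted p = 0.0153). Jak2 had 6129, 6369.5, 6085 and 5344, against 12978, 13066, 13878 and 8990.0 (log2 fold change 1.01 with SE 0.22 and adjusted p = 0.0186). Stat3 had 4027, 3940.3, 3872 and 3634, against 5173, 4663, 5023 and 4999.8, a 1.28-fold higher mean (log2 fold change 0.36 with SE 0.10 and adjusted p = 0.0484). None of the 3 overlapped between the groups, as in 435 of the 447 genes called higher, so this adds no evidence. Of all 18 genes, 6 were higher and 1 lower without overlap, against 8.01% and 5.8% of all genes tested. Lifr did not pass without M8, M13 or M15 (highest adjusted p 0.0585). Jak2 did not pass without M8 or M13 to M15 (highest adjusted p 0.0619). Stat3 did not pass without M3, M5 to M11 or M13 to M16 (highest adjusted p 0.129).

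Several receptors and channels fell. Tacr1 (ENSMUSG00000030043), which encodes the substance P receptor, had 707, 463, 618 and 236 normalized reads under vehicle, against 111, 31.7, 93.5 and 83.9 under E2/MPA, a 6.33-fold lower mean (log2 fold change -2.67 with SE 0.43 and adjusted p = 0.00264). Ntrk2, which encodes the neurotrophin receptor TrkB, had 1059, 723, 966 and 603, against 299, 213, 269 and 289 (log2 fold change -1.62 with SE 0.25 and adjusted p = 0.00225). Every E2/MPA library of both genes lay under the lowest vehicle library. Kcng1, a modifier subunit of voltage-gated potassium channels, had 66.2, 23.5, 58.7 and 415, against 1.19, 3.52, 3.42 and 8.60 (log2 fold change -4.14 with SE 0.97 and adjusted p = 0.0255), with M8 far above the other vehicle libraries. Clic6, a chloride intracellular channel gene, had 176, 75.6, 167 and 243, against 20.2, 14.1, 9.12 and 52.7 (log2 fold change -2.91 with SE 0.65 and adjusted p = 0.0196). Auts2 had 234, 227, 185 and 433, against 48.8, 36.1, 25.1 and 112 (log2 fold change -2.41 with SE 0.46 and adjusted p = 0.00781), highest in M8 and M16. Kcng1 did not pass without M5, M7, M8 or M13 to M15 (highest adjusted p 0.088). Clic6 did not pass without M5, M7, M8 or M13 to M15 (highest adjusted p 0.0662).

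**Figure D3:**
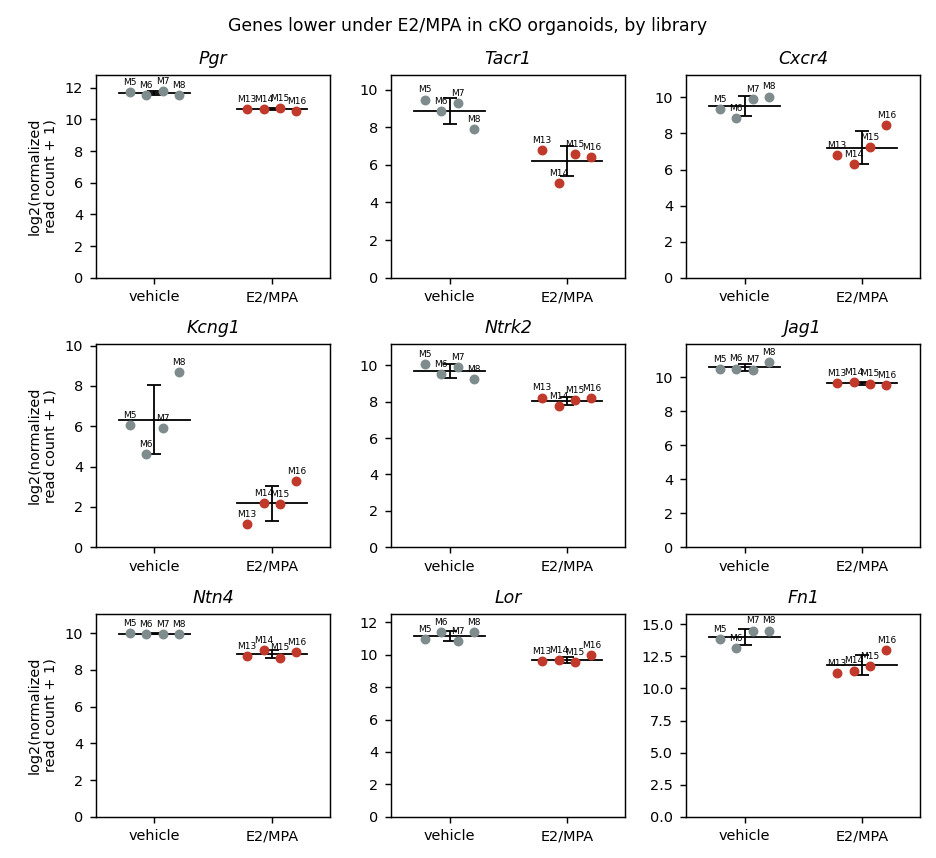
Each panel plots log2(normalized read count + 1) of 1 gene in the 4 vehicle (grey) and 4 E2/MPA (red) cKO libraries, with a bar at the mean and error bars of 1 SD. The groups do not overlap in any panel; Pgr, Jag1, Ntn4 and Lor are tight within groups, while Kcng1, Cxcr4 and Fn1 are widely spread, with M16 the highest of the red points.

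Chemokine genes and their receptors changed in both directions. Of 15 tested, 3 rose and 3 fell, against 2.71% higher and 1.48% lower over all genes tested. Without M8 and M16, 3 of the 15 were called, against 428 of all 16509 genes tested. Cxcr4, which encodes the receptor of CXCL12, had 651, 461, 953 and 1053 under vehicle, against 112, 77.5, 153 and 354 under E2/MPA, and Ackr3, which encodes the scavenger receptor of the same ligand, had 1102, 822, 1034 and 819.8, against 414, 344, 496 and 492. Both fell, Cxcr4 with log2 fold change -2.32, adjusted p = 0.0314 and Ackr3 with log2 fold change -1.11, adjusted p = 0.000219. Cx3cl1, the fractalkine gene, fell from between 762 and 968 to between 519 and 781 (log2 fold change -0.47, adjusted p = 0.0325), and its groups overlapped. Ccl28, which encodes a mucosal chemokine, had 192, 444, 198 and 42.7, against 2201, 3727, 2708 and 1452 (log2 fold change 3.85 with SE 1.03 and adjusted p = 0.0494). Cxcl2 rose from between 149 and 255 to between 258 and 431 (log2 fold change 0.81, adjusted p = 0.026), as did Cxcl14, chosen after its values were seen, from between 265 and 636 to between 774 and 1525 (log2 fold change 1.44, adjusted p = 0.0383). Cxcr4 did not pass without M5, M7, M8 or M13 to M15 (highest adjusted p 0.109). Cx3cl1 did not pass without M5, M7, M8 or M13 to M15 (highest adjusted p 0.111). Ccl28 did not pass without M5, M7 to M11 or M13 to M16 (highest adjusted p 0.14). Cxcl2 did not pass without M5, M7, M8, M14 or M16 (highest adjusted p 0.094). Cxcl14 did not pass without M5, M7 to M9 or M13 to M15 (highest adjusted p 0.119).

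A few genes of the Notch and axon guidance lists fell. Of 15 Notch pathway genes tested, 0 rose and 2 fell, against 1.48% lower over all genes tested, with a median of -0.21, and both were ligands. Jag1 had 1432, 1441, 1396 and 1879 under vehicle, against 802, 831, 785 and 743 under E2/MPA (log2 fold change -0.95 with SE 0.12 and adjusted p = 0.000435). Dll4 had 798, 778, 714 and 923, against 512, 648, 408 and 623 (log2 fold change -0.57 with SE 0.14 and adjusted p = 0.0325). Without M8 and M16, 1 Notch gene was called. Of 21 axon guidance genes tested, 1 rose and 3 fell, against 2.71% higher and 1.48% lower over all genes tested, with a median of -0.27. Those that fell encode a secreted ligand, a basement membrane protein and a receptor. Ntn4, which encodes the basement membrane protein netrin 4, had 1018, 981, 994 and 981, against 427, 539, 403 and 497 (log2 fold change -1.10 with SE 0.13 and adjusted p = 0.000355), with an SD of 17.2 among the vehicle libraries. Nrp1, a receptor gene for semaphorins and VEGF, had 1161, 953, 1379 and 1257, against 560.3, 489.6, 712 and 595 (log2 fold change -1.01 with SE 0.17 and adjusted p = 0.00385). Slit2, which encodes a ligand of ROBO receptors, fell from between 499 and 771 to between 259 and 359 (log2 fold change -1.03, adjusted p = 0.0247), and Plxna2, a semaphorin receptor gene, rose from between 182 and 312 to between 331 and 518 (log2 fold change 0.79, adjusted p = 0.0194). Dll4 did not pass without M5, M6, M8, M13 or M15 (highest adjusted p 0.0966). Slit2 did not pass without M5, M7 or M13 to M15 (highest adjusted p 0.0845). Plxna2 did not pass without M5, M7, M14 or M15 (highest adjusted p 0.071).

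In the hedgehog group of 8 tested genes, the ligand Ihh rose as given above and Ptch1, the receptor and a known target of the pathway, fell. Ptch1 had 767, 731, 798 and 781 under vehicle, against 598, 622, 649.7 and 596 under E2/MPA, a 1.25-fold lower mean (log2 fold change -0.32 with SE 0.06 and adjusted p = 0.0114). The groups did not overlap, with an SD of 28.8 under vehicle and 25.1 under E2/MPA. The call ended without both M8 and M16.

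Known targets of TGF-beta and SMAD signalling fell or did not pass in these organoids. Of 25 tested, 0 rose and 4 fell, against 1.48% lower over all genes tested, with a median of -0.24 and 19 below 0. In control organoids 1 rose and 7 fell, with a median of -0.43, so the falls were not particular to cKO. Fn1, Tgfbi, Ltbp1 and Cdkn2b were called lower in control as well (limma adjusted p 0.0446, 0.00314, 0.000888 and 0.0106). Fn1, the fibronectin gene, had 14962, 9028, 23332 and 23256 under vehicle, against 2395, 2694, 3455 and 8123 under E2/MPA (log2 fold change -2.16 with SE 0.56 and adjusted p = 0.0416), and M16 was the highest of the E2/MPA libraries. Fibronectin is also made by stromal cells, and M16 was the library with the highest stromal marker level; the part of that level in the Fn1 values was not tested. Tgfbi, which encodes a TGF-beta induced matrix protein, had 273, 398, 225 and 105, against 83.3, 85.4, 45.6 and 50.5 (log2 fold change -1.80 with SE 0.48 and adjusted p = 0.0482). Ltbp1, whose product stores latent TGF-beta in the matrix, had 3895, 3626, 3468 and 4632, against 2178, 1934, 2048 and 2544 (log2 fold change -0.84 with SE 0.16 and adjusted p = 0.00766). Cdkn2b, which encodes the cyclin-dependent kinase inhibitor p15, had 923, 743, 888 and 978, against 612, 504, 540.3 and 653 (log2 fold change -0.61 with SE 0.13 and adjusted p = 0.0125). Without M8 and M16, 2 of the 25 were called. Fn1 did not pass without M1, M5, M7 to M9 or M13 to M15 (highest adjusted p 0.126). Tgfbi did not pass without M3 to M7, M9, M11 or M13 to M16 (highest adjusted p 0.13).

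Among epithelial structural and protease inhibitor genes, Lor, which encodes the cornified envelope protein loricrin, had 1968, 2701, 1801 and 2683 under vehicle, against 774, 819, 748 and 996 under E2/MPA (log2 fold change -1.44 with SE 0.16 and adjusted p = 0.000129). It was the only call among 18 squamous and cornified genes tested. Serpinb11 had 668, 493, 708 and 573, against 288, 210.5, 238 and 238 (log2 fold change -1.32 with SE 0.15 and adjusted p = 0.000236), and Serpinb1a, an inhibitor of neutrophil proteases, had 615, 524, 945 and 678, against 247, 164, 289.5 and 285 (log2 fold change -1.48 with SE 0.26 and adjusted p = 0.00478). These 2 falls and the rise of Serpina3n were the calls among 18 serine protease inhibitors tested. Lrrc9, on the list of ciliated cell markers, fell from 67.3, 73.1, 85.8 and 46.0 to 17.8, 14.1, 23.9 and 12.9 (log2 fold change -1.93 with SE 0.31 and adjusted p = 0.00305). The 9 markers of that list in the table summed to 140 to 168 under vehicle and 83.2 to 98.9 under E2/MPA, and Lrrc9 was 1 called of 5 tested. Without Lrrc9 the sums overlapped (72.9 to 93.7 under vehicle and 59.3 to 86.0 under E2/MPA).

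**Figure D4:**
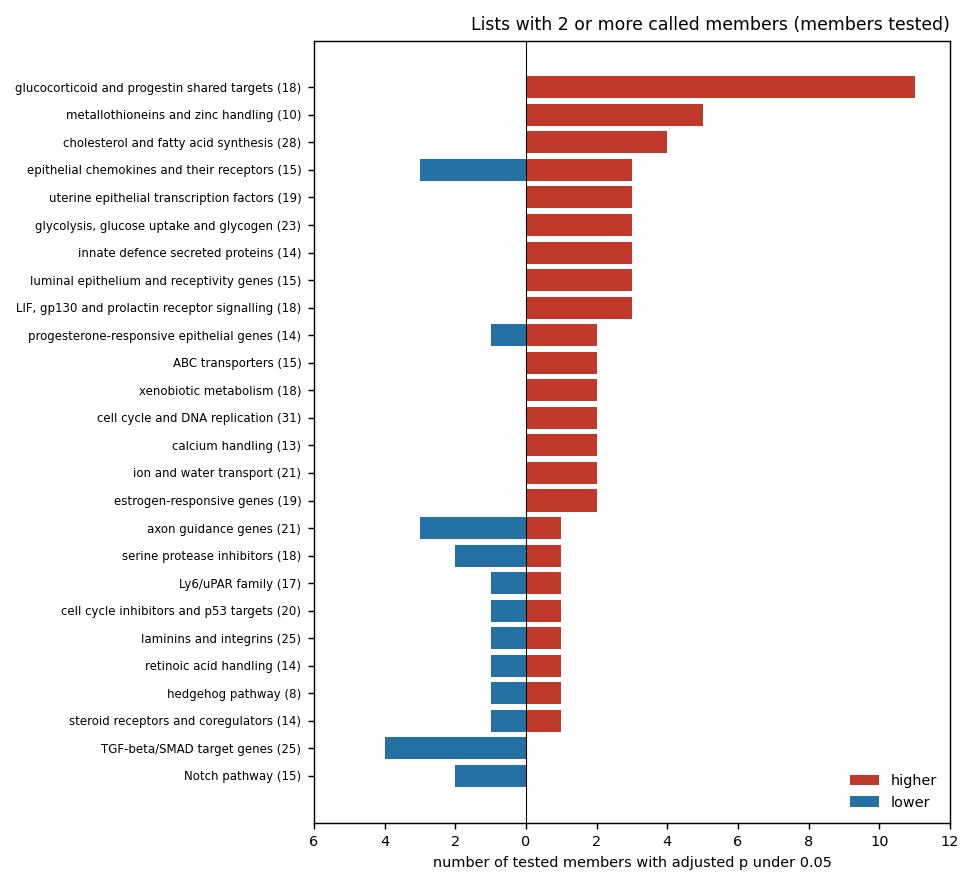
Bars count, for each gene list with at least 2 called members, how many tested members were called higher (red, to the right) or lower (blue, to the left) in cKO organoids, with the number tested in parentheses. Shared glucocorticoid and progestin targets have 11 called of 18, chemokines and their receptors 3 rises and 3 falls of 15, zinc handling 5 of 10, and the TGF-beta/SMAD and Notch lists have only falls.

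The same hormones given to control organoids called 1469 genes (8.9%), and no gene's response differed between genotypes past the threshold. The interaction called 0 genes by limma, 0 by edgeR and 0 by DESeq2, and 309, 318 and 295 genes had an unadjusted p under 0.05, with a lowest limma adjusted p of 1.00. These counts are under a share of 0.05 of the 16509 genes tested, so the test may be conservative. With libraries 8 numbers apart as a block it was 1056 genes. The 0 calls do not show that the genotypes responded alike. Of the 692 genes called in cKO, 575 were also called in control in the same direction. The other 117 were called in cKO alone, and 116 of them had the same sign in control, with a median absolute change of 0.58 in cKO and 0.32 in control. A further 894 genes were called in control alone. Of the 692 genes, 580 were without overlap in the same direction in control libraries and 0 in the opposite direction, against 12.1% of all genes tested that were without overlap in control. The cKO and control comparisons share no libraries in their means, but both take each gene's spread from the same fit over all 16 libraries. A gene with a small spread is thus favoured for a call in both, so the calls in cKO and in control are not independent.

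Among genes called in cKO alone, Ace had the lowest adjusted p in cKO. Ace, which encodes the angiotensin-converting enzyme, had 116, 134, 119 and 153 under vehicle, against 316, 338, 409 and 341 under E2/MPA in cKO organoids (log2 fold change 1.43 with SE 0.18 and adjusted p = 0.000384). Control libraries ranged from 141 to 161 under vehicle and 154 to 327 under E2/MPA (log2 fold change 0.55, adjusted p = 0.0653), and the difference in log2 fold change of 0.87, SE 0.25, unadjusted p = 0.0034 did not pass adjustment. Omp, the olfactory marker protein gene, had 921, 669, 866 and 847, against 526, 531, 488 and 475 in cKO (log2 fold change -0.70 with SE 0.12 and adjusted p = 0.00543), and control libraries ranged from 538 to 768 under vehicle and 531 to 697 under E2/MPA, with a difference in log2 fold change of -0.60, SE 0.17, unadjusted p = 0.00379. Nxph4, which encodes a neurexophilin, rose from between 0.837 and 14.3 to between 47.3 and 58.1 (log2 fold change 2.86, adjusted p = 0.00826), and Clcn3, a chloride-proton exchanger gene, from between 1143 and 1593 to between 1987 and 2236 (log2 fold change 0.70, adjusted p = 0.00663). Their differences in log2 fold change between genotypes were 1.12, SE 0.77, unadjusted p = 0.168 for Nxph4 and 0.32, SE 0.18, unadjusted p = 0.0992 for Clcn3.

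Among other genes with an unadjusted interaction p under 0.05, the fitted change was smaller in cKO for Haus8, Rfng and Gps1 and larger for Haus1, none past adjustment. Haus8, which encodes a subunit of the augmin complex of the mitotic spindle, had 160.4, 116, 150.2 and 125, against 253, 233, 227 and 192 in cKO (log2 fold change 0.72 with SE 0.21 and adjusted p = 0.0779), and control libraries ranged from 80.2 to 122 under vehicle and 265 to 583 under E2/MPA, a difference in log2 fold change of -1.14, SE 0.30, unadjusted p = 0.00191. Haus1, another augmin subunit, instead fell in cKO from between 149.7 and 191 to between 103 and 125 (log2 fold change -0.58, adjusted p = 0.0125), with a difference in log2 fold change of -0.52, SE 0.17, unadjusted p = 0.00762. Rfng, which encodes a glycosyltransferase that modifies Notch receptors, rose in cKO from between 181 and 245 to between 429.7 and 677 (log2 fold change 1.29, adjusted p = 0.000408), with a difference in log2 fold change of -0.69, SE 0.23, unadjusted p = 0.00858. Gps1, a subunit of the COP9 signalosome, rose from between 1012 and 1132 to between 1513 and 1715 (log2 fold change 0.62, adjusted p = 0.000286), with a difference in log2 fold change of -0.36, SE 0.10, unadjusted p = 0.00403. All had an interaction adjusted p of 1.00. In control, Abcb5 was at 0 under vehicle and at 368 to 2754 under E2/MPA, and its difference in log2 fold change of -1.68, SE 0.81, unadjusted p = 0.0562 did not pass either.

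**Figure D5:**
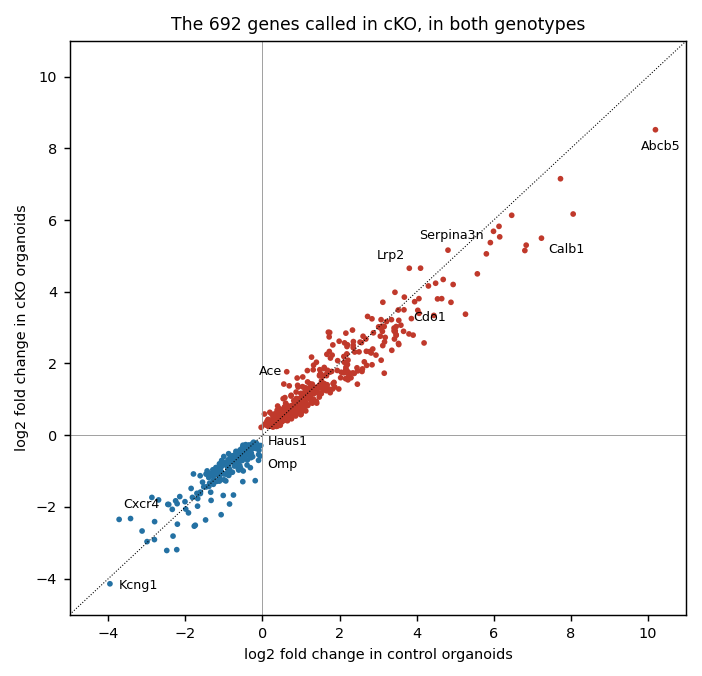
Each point is 1 of the 692 genes called in cKO, with its log2 fold change under E2/MPA in control organoids on the x axis and in cKO organoids on the y axis; red genes were called higher and blue lower in cKO, and the dotted line marks equal change. The genes were chosen by the y axis, and Ace lies above the line and Abcb5 below it.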

How the data were processed

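RNA-seq was read from endometrial epithelial organoids in 16 libraries, 4 per genotype and treatment. Per the labels' protocols, RNA was purified from Trizol on columns and made into TruSeq libraries for a NovaSeq instrument. HISAT2, featureCounts, DESeq2 and the build GRCm39 are named in the submitters' processing notes. Versions and the strand setting are not given in the sources used here, so reads of overlapping or antisense genes cannot be told apart. The authors deposited 1 table of 23306 genes whose unit is a signal, each gene's read count over the size factor of the library. Multiplied back, 100% of the values were whole reads within 0.01 read, and the 8 cKO libraries held 14372111 to 19458493 reads.

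Values were analysed as log2(value + 1), which understates the change of low genes. Genes reaching 10 in at least 4 of the 16 libraries were tested (16509), and the other 6797 were not. One limma fit (version 3.58.1, R 4.3.3) over all 16 libraries, with 1 mean for each group and limma's trend option, gave two-sided tests with Benjamini-Hochberg adjustment at 0.05. All adjusted p-values come from this fit unless another tool is named. It was tested on simulated data. Alternatives were edgeR (4.0.16) and DESeq2 (1.42.0) on the recovered reads, other scalings, pseudocounts and filters, library weights, a stromal covariate, a replicate block and leaving out libraries. Symbols came from GENCODE M21 for 22484 genes, and the 822 others held 1.83% of the reads. Promoters came from RefSeq (GRCm38.p6), and no GRCm39 sequence was used here.

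The comparison, the gene lists and the naming rule were chosen with earlier results of these data known. The rule names Tgfbr2, Pgr and Esr1, the 20 largest rises and 20 largest falls without overlap and with a mean of at least 50, the 20 lowest adjusted p-values, the 10 largest changes at a mean of at least 5000, up to 4 called members of each list described, the 10 lowest adjusted p-values among genes called in cKO alone, the 10 lowest interaction p-values, and genes switched on. Not every gene that the rule allows is described. One called gene of the cholesterol and fatty acid synthesis list is counted in that list but not reported here.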

Additional observations from a re-analysis of the deposited data

Results flagged for a closer look

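Each of 206 groups of 4 libraries (1 gene described above in 1 cKO group) was checked for a library whose gap to the nearest other exceeded Dixon's limit, and 14 had one. Chance flags about 1 in 20 such groups. Under vehicle, these were the following. In M8, Fkbp5 was 188, above the 89.2 to 95.8 of the other libraries. In M7, Sult1a1 was 7.91, above the 2.51 to 3.37 of the other libraries. In M8, Lyz1 was 2.51, with 0 in each of the other libraries. In M8, Selenbp1 was 914, below the 2054 to 2288 of the other libraries. In M7, Scnn1a was 65.5, below the 96.5 to 100 of the other libraries. In M7, Arl4d was 6.78, above the 2.24 to 2.52 of the other libraries. In M8, Kcng1 was 415, above the 23.5 to 66.2 of the other libraries. In M8, Jag1 was 1879, above the 1396 to 1441 of the other libraries. In M5, Map3k6 was 176, above the 128 to 134 of the other libraries. Under E2/MPA, these were the following. In M14, Tcf15 was 119, above the 20.5 to 36.9 of the other libraries. In M16, Serpina3n was 514, above the 14.3 to 48.4 of the other libraries. In M16, Ly6f was 377, below the 911 to 979 of the other libraries. In M16, Greb1 was 3867, below the 5924 to 6295 of the other libraries. In M16, Ipcef1 was 10.8, above the 1.19 to 2.64 of the other libraries.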

How the results depend on the processing

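Results were recomputed under 30 alternatives, 16 of which left out 1 library. The count of 692 genes called in cKO organoids (447 higher, 245 lower) moved by more than 1.5 times under several. DESeq2 called 1273 (778 higher, 495 lower), array weights 1678 (956 and 722), a stromal marker covariate 2944 (1643 and 1301) and the replicate block of libraries 8 numbers apart 3098 (1650 and 1448). Without M8 and M16 it was 428 (300 and 128). Without 1 library it ran from 362 to 827, with 254 to 539 higher and 107 to 288 lower. edgeR called 678 (425 and 253), and 8 cKO libraries alone gave 878 (584 and 294). The cause of these moves was not tested. Upper-quartile scaling moved the median change over all genes to -0.04, further than the other scalings. In all alternatives together, 229 genes kept a call (172 higher, 57 lower). The interaction called 0 genes under every alternative run, and 204 to 694 genes had an unadjusted p under 0.05 when 1 library was left out (1056 with the block).

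The labels give no number shared between groups, so the block rests on the data. Deviations from the group mean were compared between each cKO vehicle library and the cKO E2/MPA libraries only. Among these, each correlated most with the library 8 numbers away, at 0.39 (M5 and M13), 0.43 (M6 and M14), 0.43 (M7 and M15) and 0.72 (M8 and M16). Correlations of cKO with control libraries were not compared. With the block, the called members rose from 2 to 8 of 19 estrogen-responsive genes, from 3 to 7 of 14 progesterone-responsive genes, from 4 to 12 of 28 genes of cholesterol and fatty acid synthesis, from 4 to 8 of 25 TGF-beta and SMAD targets, from 2 to 4 of 15 Notch genes, from 4 to 9 of 21 axon guidance genes, from 3 to 11 of 18 genes of LIF, gp130 and prolactin receptor signalling, from 3 to 7 of 14 innate defence genes, from 2 to 7 of 21 ion and water transport genes, from 5 to 8 of 10 zinc genes and from 2 to 5 of 8 hedgehog genes. The shared glucocorticoid and progestin targets went from 11 to 13 of 18, and the chemokine list stayed at 6 of 15. Over all 16509 genes tested, calls rose from 692 to 3098 with the block, so the gains of the lists are to be read against that rise.

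Of 103 genes described, 99 were called, and 36 of these lost the call under at least 1 alternative, 21 of them without both M8 and M16. Over all genes and alternatives, 2801 values kept direction and call, 264 lost a call and 9 gained one. 6 changed sign, all of Tgfbr2, whose change was near 0: 0.00038 with DESeq2, 0.0103 with array weights, 0.0029 without M6, 0.12 without M8, 0.037 without M13 and 0.085 without M15. Leaving out 1 library moved it from -0.13 to 0.12. Depth limits the genes switched on, whose vehicle level rests on 0 to 3 reads.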

Other observations

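Some gene groups of the same organoids gave no call by limma without a block. Counts by limma with libraries 8 numbers apart as a block, a pairing that the labels do not state, are given beside them. Over all 16509 genes tested, 3075 had an unadjusted p under 0.05. Over the same genes, edgeR called 678, DESeq2 1273 and the block 3098, and the counts below are to be read against these. Of 20 genes of the unfolded protein response and secretory pathway tested, limma called 0 (8 at an unadjusted p under 0.05, 0 by edgeR, 3 by DESeq2, 9 with the block), and 19 had a change above 0 (against 8135 of the 16509 genes tested), with a median of 0.35. Of 21 keratins, cadherins, desmosome genes and connexins, 0 were called (3 at an unadjusted p under 0.05, 0 by edgeR, 1 by DESeq2, 5 with the block), with a median of -0.0058. The 12 EGF family and ERBB receptor genes (1 at an unadjusted p under 0.05, 0 by edgeR, 0 by DESeq2, 2 with the block) and the 11 genes of the IGF system (2, 0, 0 and 3) also gave 0 calls, with medians of -0.11 and -0.15. Of 14 genes of antigen presentation, 0 were called (4 at an unadjusted p under 0.05, 0 by edgeR, 1 by DESeq2, 4 with the block), with a median of -0.25. A p that misses the threshold does not show that levels were equal.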
